A study of Homo sapiens with 4 samples.

Results

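The cytosolic ribosomal protein genes encode the protein components of the ribosome that translates nuclear messages, and the 78 of them described here are protein-coding genes whose symbols name a large subunit protein (RPL, RPLP) or a small subunit protein (RPS, RPSA). They were chosen by symbol and by a level of 10 or more counts in at least 2 of the 4 libraries, which 78 of 80 matching genes of the 20263 listed met: 47 of the large and 31 of the small subunit. The other 2 were RPL39L, with 0 counts in every library, and RPL10L, with 1 count in DMSO replicate 1 and 0 elsewhere. A count of 0 allows up to 6 counts in a library here (3 fragments, if both mates are counted), or 0.172 to 0.202 CPM (counts per 1e6 counts of the library). RPS27L and FAU fall outside the rule and are described with the other genes of the pathway.

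The RNA came from HCT116, a human cell line grown out of a colorectal carcinoma, with the genotype given as WT. Cells received 30 µM HJ-23, a compound derived from piperine per the series title, or 0.1% DMSO as solvent control, each for 24 hours and with 2 libraries per group. The treatment entry reads HJ-25 for libraries titled HJ-23, and the title was followed. Nothing in the labels ties a group's libraries to separate cultures, so p-values measure only how far these 4 libraries spread, and that spread may be technical.

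Each ribosome has a small subunit, which reads the message, and a large subunit, which joins amino acids and holds the exit tunnel for the new chain. Cells make the proteins of both subunits in near-equal amounts, from genes that are among the most strongly transcribed in growing cells. Their messages start with a short run of pyrimidines, the 5′ terminal oligopyrimidine (TOP) tract, through which mTORC1 signalling and the protein LARP1 control their translation and stability. Ribosomal proteins that are not built into ribosomes can reach the nucleus, where RPL5 and RPL11 bind MDM2, the ubiquitin ligase that restrains p53.

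The start sites of several members are shown because the TOP tract is the sequence feature that ties these genes together as a group. RefSeq's promoter table (GRCh38.p14), which takes 250 bases before to 50 after each listed start, matched 62 of the 78 members with 77 starts. At 46 of the 77 starts, 59.7%, the first transcribed base was a C followed by at least 4 more pyrimidines (C or T) on the coding strand, against 4.07% of all 35116 starts in the table. Such a start was found for 46 of the 62 members. Each line gives 25 bases before the start and the first 15 transcribed bases, 5′ to 3′, with a pyrimidine run of the form just given in capitals, as far as it goes unbroken in the window.
RPLP0 (chr12:120201097-120201136, minus strand): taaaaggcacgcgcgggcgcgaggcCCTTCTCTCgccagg
RPLP1 (chr15:69452793-69452832, plus strand): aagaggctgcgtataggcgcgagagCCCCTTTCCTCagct
RPLP2 (chr11:809942-809981, plus strand): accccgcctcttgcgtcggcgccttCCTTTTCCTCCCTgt
RPL13A (chr19:49487583-49487622, plus strand): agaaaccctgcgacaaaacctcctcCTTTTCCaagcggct
RPSA (chr3:39406695-39406734, plus strand): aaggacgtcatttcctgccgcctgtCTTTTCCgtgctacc
RPS6 (chr9:19380222-19380261, minus strand): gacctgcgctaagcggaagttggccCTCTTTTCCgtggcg
RPS19 (chr19:41860230-41860269, plus strand): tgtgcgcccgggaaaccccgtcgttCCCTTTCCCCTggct
RPS3A (chr4:151099603-151099642, plus strand): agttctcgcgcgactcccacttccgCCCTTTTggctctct
RPS4X (chrX:72277234-72277273, minus strand): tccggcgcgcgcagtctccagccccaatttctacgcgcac
RPS7 (chr2:3575235-3575274, plus strand): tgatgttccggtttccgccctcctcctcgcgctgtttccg

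The last pair, RPS4X and RPS7, have no run of that form at the listed start. The motif CCGGAAG, the core bound by ETS factors such as GABPA, was found on either strand in 26 of the 77 member promoters (33.8%) and in 10.3% of all promoters of the table. These matches describe the sequences and show no binding. The median log2 fold change (HJ-23 over DMSO) was -0.08 over the 46 members with a pyrimidine start and -0.07 over the 16 matched members without one.

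Total counts ranged from 29769568 to 34831207 per library. Epithelial markers fixed for the label check were present, with EPCAM at 249.6 to 280.6 and KRT8 at 1721 to 2459 CPM, while CDX1 was at 0 and VIL1 and CDH17 were at or under 0.320. The leukocyte markers PTPRC and CD3E and the fibroblast markers COL1A2 and DCN were at 0 in all 4 libraries, and COL1A1 was at 56.7 to 63.2. The mitochondrially encoded genes took 6.41% and 5.12% of counts in HJ-23 replicates 1 and 2, against 6.59% and 7.73% in DMSO replicates 1 and 2.

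The 78 members together held 7.90% and 8.99% of all counts in HJ-23 replicates 1 and 2, against 8.97% and 8.57% in DMSO replicates 1 and 2. HJ-23 replicate 1 was the lowest of the 4 libraries and HJ-23 replicate 2 the highest, so the DMSO libraries lay between the HJ-23 libraries. HJ-23 replicate 1 was also lowest with some genes left out of the total, but DMSO replicate 1 was then the highest. Without the mitochondrially encoded genes the shares were 8.44% and 9.48% in HJ-23, against 9.60% and 9.28% in DMSO. Without the 100 other genes with most counts they were 9.862% and 11.172% in HJ-23, against 11.405% and 10.998% in DMSO. As a share of counts per kilobase of transcript, HJ-23 replicate 2 stayed highest, at 19.90% against 19.61% in DMSO replicate 1. Of all counts, the mean shares were 8.45% ± 0.771 in HJ-23 and 8.77% ± 0.282 in DMSO (SD, n = 2 each), a difference of -0.32 percentage points (exact two-sided permutation test over libraries, p = 1.0, where 2 against 2 libraries can give no p below 0.333). Without HJ-23 replicate 2 the difference was -0.87 percentage points, and without HJ-23 replicate 1 it was 0.22. Each library's share has a Wilson 95% interval of about 0.01 percentage points on either side (7.89% to 7.91% in HJ-23 replicate 1), which covers counting error only, so depth does not limit this comparison. In bulk RNA a change in which cells were present and a change in RNA per cell cannot be told apart.

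The large subunit genes held 4.86% and 5.35% of counts in HJ-23 replicates 1 and 2, against 5.42% and 5.23% in DMSO replicates 1 and 2. The small subunit genes held 3.04% and 3.64% in HJ-23 replicates 1 and 2, against 3.55% and 3.34% in DMSO replicates 1 and 2. The ratio of large to small subunit counts was 1.60 and 1.47 in HJ-23, against 1.53 and 1.56 in DMSO. Again both DMSO libraries lay inside the range of the HJ-23 libraries. The mean ratio was 1.53 ± 0.0901 in HJ-23 and 1.55 ± 0.0268 in DMSO (SD, n = 2 each; exact two-sided permutation p = 1.0). Per kilobase of transcript the mean ratio was 1.395 in HJ-23 and 1.404 in DMSO.

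**Figure D1:**
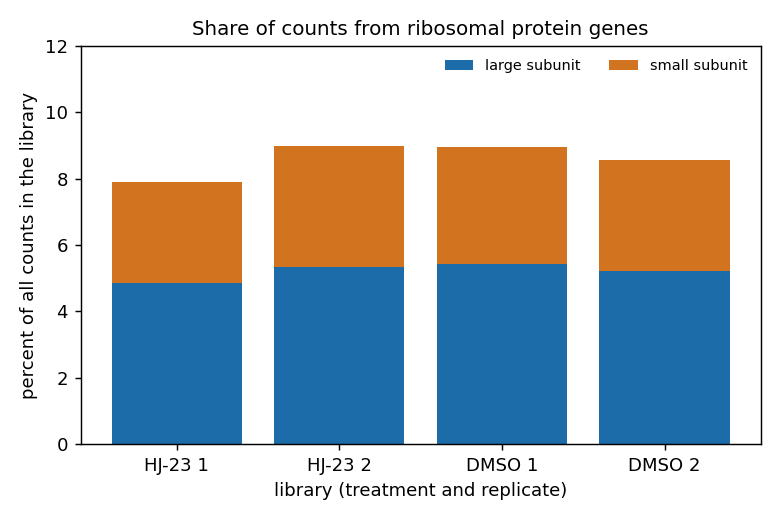
Percent of all counts from large subunit genes (lower part of each bar) and small subunit genes (upper part) in each of the 4 libraries. The DMSO libraries, at 8.97% and 8.57%, lie between the HJ-23 libraries, at 7.90% and 8.99%.

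No member passed the test for a change. With edgeR's quasi-likelihood test over all 14062 genes tested, 0 of the 78 members had an adjusted p below 0.05, against 0.0853% of all genes (12 genes), and the smallest adjusted p of a member was 0.321. At an unadjusted p below 0.05, 0 members were higher (6.77% of all genes) and 2 were lower, 2.56% of members against 5.25% of all genes. DESeq2 also called 0 members at an adjusted p below 0.05 (2.24% of all genes with an adjusted p). At an unadjusted p below 0.05 it gave 0 members higher and 2 lower. Of the 16717 genes tested by DESeq2, 1587 had such a p in either direction. All 78 members were kept by the filter on low counts.

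The fold changes were small and leaned down. The median log2 fold change over the 78 members was -0.09, against 0.01 over all genes tested, and 57 members (73.1%) had a negative value, against 49% of all genes. Both HJ-23 libraries lay below both DMSO libraries for 20 members, 25.6% against 21.2% of all genes, and above them for 0 members, against 24.8% of all genes. For the other 58 the groups overlapped. The lean was lost when 1 library was left out: the median over the members was 0.02 without HJ-23 replicate 1, with 42 positive and 36 negative. It was -0.24 without the other HJ-23 library, with 5 positive and 73 negative. With HJ-23 replicate 2 left out, 18 members (23.1%) were lower at an unadjusted p below 0.05, against 5.24% of all genes, and 0 were higher, against 4.4%. With HJ-23 replicate 1 left out, 7 members (8.97%) were higher, against 12.4% of all genes, and 0 were lower, against 12.1%. Each of these fits rests on 1 HJ-23 library, so calls after adjustment over all genes were not read as a result about the members.

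A test that is not passed does not show that levels were alike, so the size of change these libraries allow is given by the intervals. The 95% interval of the log2 fold change lay within 1.5-fold in either direction for 49 of 78 members, and within 2-fold for 75. The 3 whose interval reached 2-fold were RPL3L and RPS3A at the lower end and RPS28 at the upper end. The median standard error was 0.16 over the members, against 0.20 over all genes tested.

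**Figure D2:**
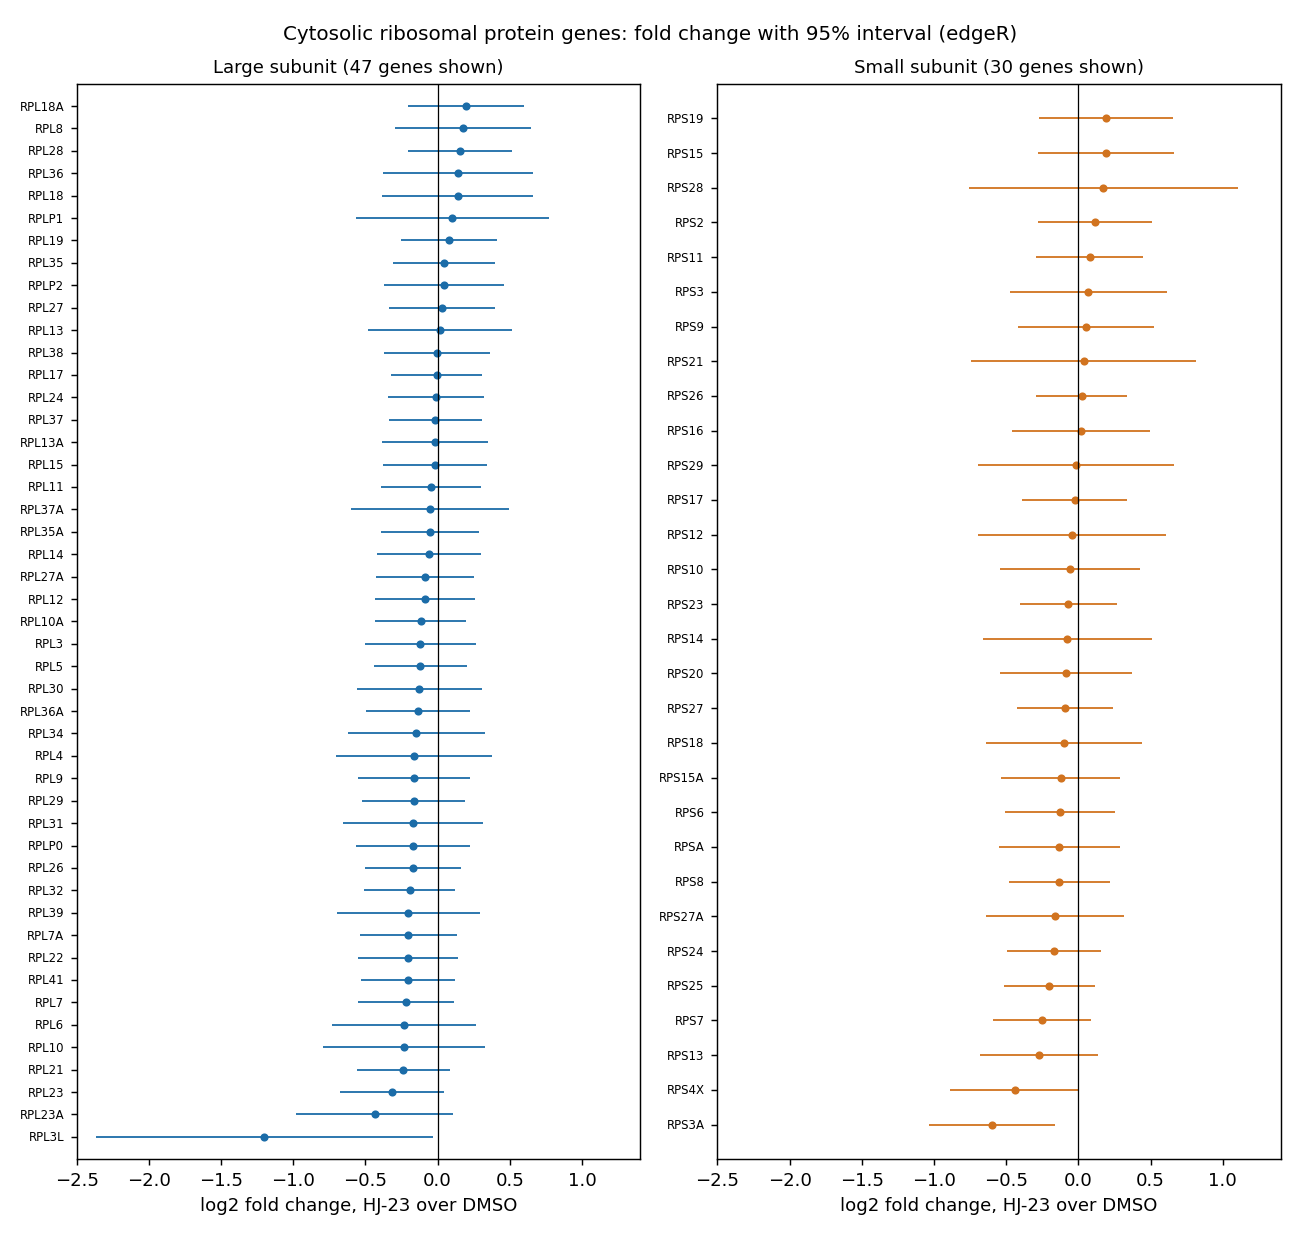
Log2 fold change of each member, with 1 small subunit gene not shown (points, HJ-23 over DMSO) with its 95% interval from the edgeR fit (lines), for the large subunit (left) and the small subunit (right). All but 2 intervals shown, those of RPL3L and RPS3A, include 0, and neither gene passed after adjustment over all genes.

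By subunit, the median log2 fold change was -0.12 over the 47 large subunit genes, of which 36 were negative and 13 (27.7%) had both HJ-23 libraries below both DMSO libraries. It was -0.07 over the 31 small subunit genes, of which 21 were negative and 7 (22.6%) had both HJ-23 libraries below. Of all genes 21.2% had both below, and these subunit shares are near that. The sign of the small subunit median changed with the library left out, at 0.11 when HJ-23 replicate 1 was dropped and -0.30 when replicate 2 was dropped. The large subunit median was -0.02 and -0.19 in the same fits.

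RPS3A (ENSG00000145425), a small subunit protein of the platform, had the smallest unadjusted p. It was at 464 and 556 CPM in HJ-23 replicates 1 and 2, against 683 and 863 CPM in DMSO replicates 1 and 2, here and below relative to the TMM-scaled library total. The HJ-23 libraries were both below the DMSO libraries, and the libraries of each group were themselves apart. The log2 fold change was -0.60 (SE 0.18, 95% interval -1.03 to -0.17, unadjusted p = 0.0150 and adjusted p = 0.321 by edgeR, n = 2 per group). GENCODE 29 annotates 38 processed or other pseudogenes named for RPS3A, and the sources used here do not say how reads shared with them were counted.

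RPS4X (ENSG00000198034), the X-linked copy of a small subunit protein with a Y-linked relative, was at 985 and 897 CPM in HJ-23, against 1089 and 1465 CPM in DMSO. The groups did not overlap, but DMSO replicate 1 was closer to HJ-23 than to DMSO replicate 2. The log2 fold change was -0.44 (95% interval -0.89 to 0.01, adjusted p = 0.419 by edgeR). RPS13, at 419 and 388 CPM in HJ-23 and 427 and 549 CPM in DMSO, showed the same order, with a log2 fold change of -0.27.

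RPL23 (ENSG00000125691), a large subunit protein at the subunit interface that, like RPL5 and RPL11, can bind MDM2, was at 597 and 698 CPM in HJ-23, against 838 and 772 CPM in DMSO. RPS7, a small subunit protein also known to bind MDM2, was at 598 and 628 CPM in HJ-23, against 773 and 684 CPM in DMSO. In both genes the HJ-23 libraries were lower without overlap, and the group means differed by more than the libraries within either group. The log2 fold changes were -0.31 for RPL23 and -0.25 for RPS7 (edgeR adjusted p = 0.456 and 0.502).

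RPL3L (ENSG00000140986), the relative of RPL3 known from heart and skeletal muscle, is a member by the rule but not a regular part of these cells' ribosomes by level: it had 12 and 8 counts in HJ-23, against 23 and 17 in DMSO. Its counts were under 1 CPM in every library, while RPL3 (ENSG00000100316) was at 3034 and 3684 CPM in HJ-23, against 3735 and 3563 CPM in DMSO. The RPL3L log2 fold change was -1.199 (SE 0.48, 95% interval -2.37 to -0.03, adjusted p = 0.405 by edgeR), and that of RPL3 was -0.12 (adjusted p = 0.781 by edgeR). RPL3L was the single member with fewer than 100 counts in any library; the other 77 ranged from 3631 to 171739 counts.

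The stalk proteins, which bring translation factors to the large subunit, differed widely between the treated libraries. RPLP1 (ENSG00000137818) was at 1163 and 2056 CPM in HJ-23, against 1554 and 1447 CPM in DMSO, so that the HJ-23 libraries lay on either side of the DMSO libraries. RPLP2 (ENSG00000177600) was at 661 and 868 CPM in HJ-23, against 743 and 742 CPM in DMSO. RPLP0 (ENSG00000089157), the stalk's anchor, was at 1834 and 2288 CPM in HJ-23, against 2330.1 and 2313 CPM in DMSO. RPLP1 and RPLP2 had the same arrangement, with 1 HJ-23 library on each side, and RPLP0 had both HJ-23 libraries lower. Log2 fold changes were 0.10, 0.04 and -0.17 for RPLP1, RPLP2 and RPLP0, none past the threshold (edgeR adjusted p = 0.899, 0.935 and 0.681).

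RPL5 (ENSG00000122406) and RPL11 (ENSG00000142676) join 5S ribosomal RNA in a particle of the large subunit. The standard errors of their log2 fold changes were 0.13 and 0.14, against a median of 0.16 over the members. RPL5 was at 1132 and 1093 CPM in HJ-23, against 1175 and 1246 CPM in DMSO. RPL11 was at 1114 and 1165 CPM in HJ-23, against 1099.9 and 1255 CPM in DMSO. RPL5 was lower in HJ-23 without overlap and RPL11 overlapped; their log2 fold changes were -0.12 (95% interval -0.44 to 0.20) and -0.05 (-0.39 to 0.30).

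RPS6 (ENSG00000137154), the small subunit protein phosphorylated by S6 kinase, was at 1951 and 1634 CPM in HJ-23, against 1869.8 and 2048 CPM in DMSO. RPS19 (ENSG00000105372), the gene most often mutated in Diamond-Blackfan anaemia, was at 683 and 931 CPM in HJ-23, against 753 and 659 CPM in DMSO. RPSA (ENSG00000168028), which also serves as a laminin receptor, was at 2162 and 2612 CPM in HJ-23, against 2843 and 2386 CPM in DMSO. The groups overlapped for all 3, with log2 fold changes of -0.13, 0.19 and -0.13. RPS27A (ENSG00000143947), made as a fusion with ubiquitin, was at 626 and 882 CPM in HJ-23, against 878 and 807 CPM in DMSO (log2 fold change -0.16).

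RPL13A (ENSG00000142541), often used as a reference gene in quantitative PCR, was at 2856 and 3284 CPM in HJ-23, against 3247 and 2972 CPM in DMSO, and overlapped fully (log2 fold change -0.02, 95% interval -0.39 to 0.35). RPL10 (ENSG00000147403), near the peptidyl transferase centre, was at 1167 and 1764 CPM in HJ-23, against 1887 and 1555 CPM in DMSO. RPL39 (ENSG00000198918), a small protein lining the exit tunnel, was at 428 and 614 CPM in HJ-23, against 631 and 568 CPM in DMSO. In both RPL10 and RPL39 it was HJ-23 replicate 1 that lay apart on the low side. Their log2 fold changes were -0.23 and -0.20 (edgeR adjusted p = 0.703 and 0.705).

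**Figure D3:**
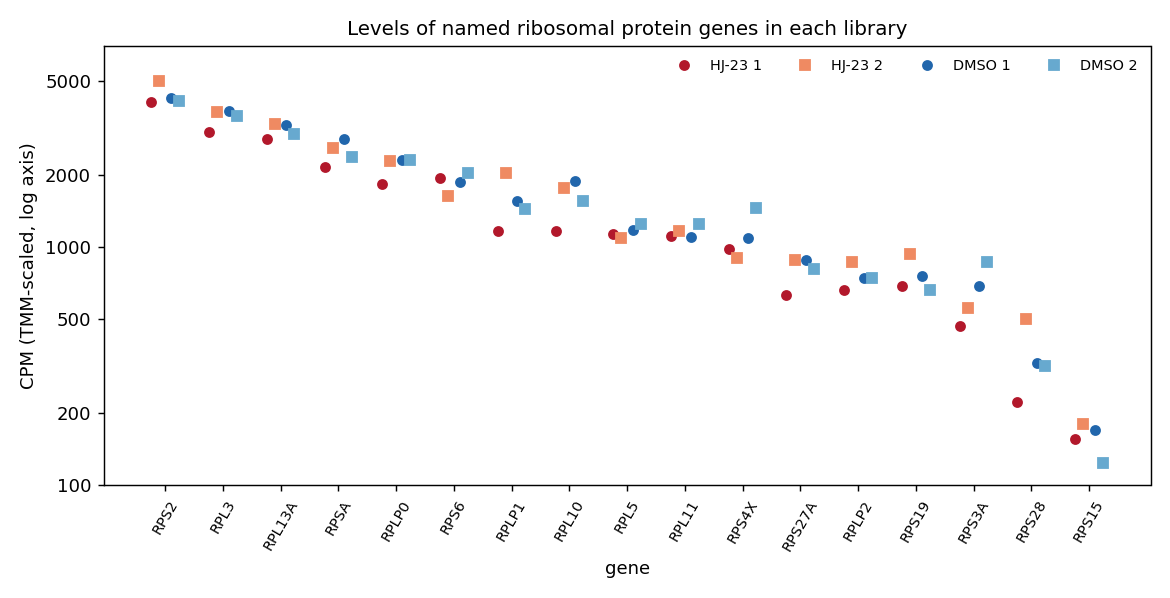
CPM of 17 named members in each library on a log axis, with HJ-23 replicates left of DMSO replicates for each gene. For RPLP1 and RPS28 the HJ-23 libraries lie on either side of both DMSO libraries, and for RPS3A and RPS4X both lie below them.

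Grouped by place in the ribosome, after the values had been seen, no group had a member past the threshold. The 8 genes of the exit tunnel (RPL4, RPL17, RPL19, RPL23A, RPL26, RPL31, RPL35 and RPL39) had a median log2 fold change of -0.17, with 6 negative. Among all 78 members 57 (73.1%) were negative, a share near that. The 3 proteins at the entry of the message channel (RPS2, RPS3 and RPS9) all had small positive values, from 0.05 to 0.12, and the groups overlapped for each. The shared sign was lost with a correction for each library's trend over GC content and transcript length. RPS2, RPS3 and RPS9 were then at -0.10, 0.02 and -0.15. In the same fit the exit tunnel genes, as listed, were at -0.12, 0.08, -0.02, -0.43, -0.08, -0.07, -0.09 and -0.08. The median over the members in that fit was -0.09. Of 10 genes mutated in Diamond-Blackfan anaemia, 8 had negative values and 2 positive ones before this correction, with a median of -0.06.

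Levels between genes were compared per length of transcript, as mean CPM per kilobase over the 4 libraries. RPS2, at the entry of the message channel, averaged 4558 CPM per kilobase and RPS18, in the head of the small subunit, 4489.7. Their order was not stable, with RPS18 above RPS2 in 3 of 4 libraries. RPL12, at the base of the stalk, had the next highest mean, at 3656 CPM per kilobase. The lowest were RPL3L at 0.217, RPS28 at 257 and RPS15 at 284. The median was 1220 CPM per kilobase over the members and 9.72 over all genes tested. These lengths are medians over annotated coding transcripts. Where an annotated transcript is longer than the one mostly made, the level per kilobase comes out too low, and the length used for RPS28 was 1326 bases. Of the 100 genes with the highest mean CPM, 36 were members.

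The difference between libraries of the same group exceeded the difference between groups for most members. For 63 of 78 members (80.8%) the difference between group means on the log2 scale was smaller than the larger of the differences within a group, against 67.1% of all genes tested. HJ-23 replicate 2 was above HJ-23 replicate 1 for 64 members (82.1%, against 50.2% of all genes), with a median log2 ratio of 0.24. DMSO replicate 1 was above DMSO replicate 2 for 64 members as well (against 49.6% of all genes), with a median log2 ratio of 0.09. For 59 members both held.

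RPS28 (ENSG00000233927), at the exit of the message channel, was the extreme: it was at 223 and 498 CPM in HJ-23, against 325 and 315 CPM in DMSO. RPS21, chosen after its values were seen, was at 284 and 565 CPM in HJ-23, against 433 and 395 CPM in DMSO. Both had HJ-23 libraries on either side of DMSO, with log2 ratios between the HJ-23 libraries of 1.16 and 0.99. A smaller set went the other way: RPL4, RPL6 and RPL23A were among 9 members higher in HJ-23 replicate 1 than in replicate 2 and higher in DMSO replicate 2 than in replicate 1. RPL4 (ENSG00000174444), which lines the exit tunnel, was at 2527 and 1907 CPM in HJ-23, against 2091 and 2879 CPM in DMSO. RPL23A was at 909 and 766 CPM in HJ-23, against 908 and 1355 CPM in DMSO. RPL4 and RPL23A were also chosen after their values were seen, and GENCODE 29 annotates 91 pseudogenes named for RPL23A, the most of any member.

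**Figure D4:**
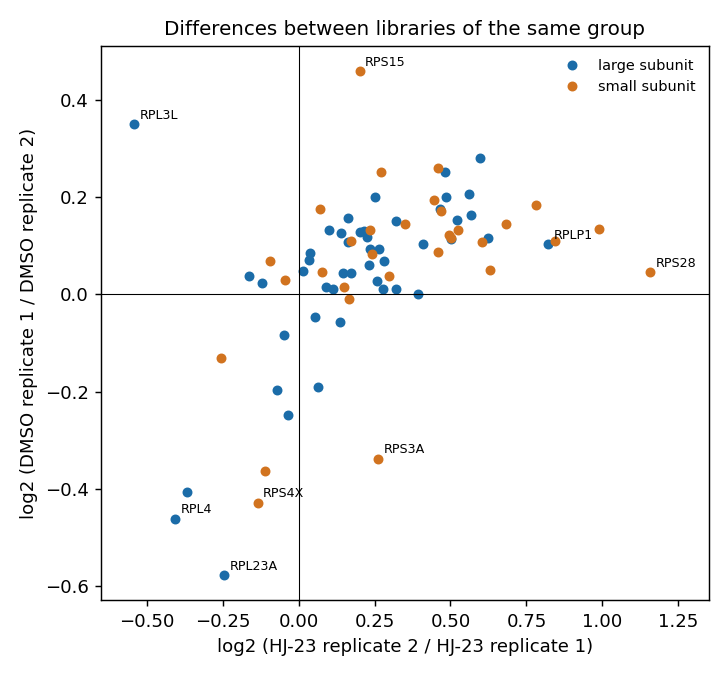
Log2 ratio of HJ-23 replicate 2 to replicate 1 (horizontal) against the log2 ratio of DMSO replicate 1 to replicate 2 (vertical) for each member. Most points, 59 of 78, lie at the upper right, RPS28 is at 1.16 on the horizontal axis, and RPL4 and RPL23A are among 9 in the lower left.

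Transcript GC content moved with these differences. Across the 78 members, Spearman's rho of GC content was 0.37 with the log2 ratio of the HJ-23 libraries, 0.38 with that of the DMSO libraries and 0.57 with the log2 fold change between groups. Across all genes tested that have a GC content it was 0.62, 0.36 and 0.38 (14021, 13989 and 14047 genes). These describe genes that share the same 4 libraries and are no test. Of 38 members with a GC content under 50%, 36 had a negative log2 fold change and the median was -0.14. Of 40 with 50% or more, 21 were negative and the median was -0.01. With a correction for each library's trend over GC content and transcript length, 65 of 78 members were negative, the median was -0.09 and 0 passed (0.249% of all genes did). At an unadjusted p below 0.05, 6 members were then lower, 7.69% against 8.38% of all genes: RPL3L, RPL29, RPS3A, RPS4X, RPL7A and RPLP0. The part of GC content in the fold changes was not tested beyond this correction.

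**Figure D5:**
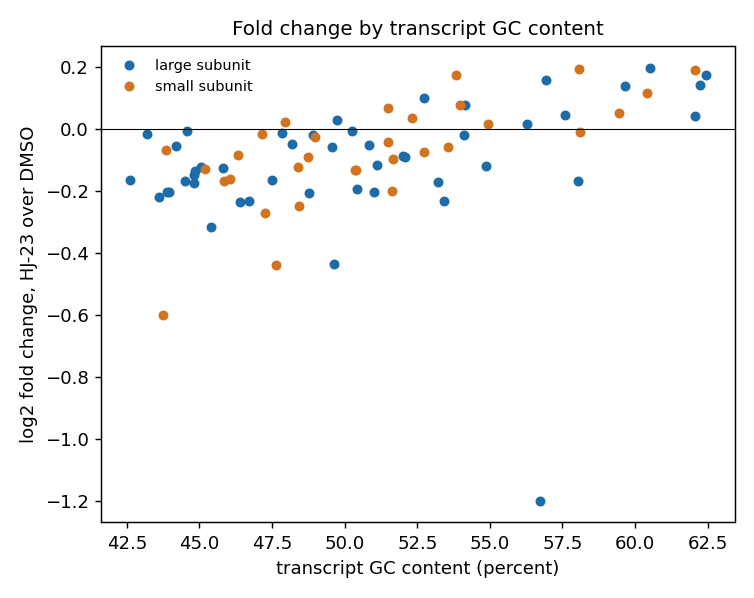
Log2 fold change of each member (HJ-23 over DMSO) by the GC content of its transcripts. Values lie lower at low GC content, with 36 of 38 members under 50% GC below 0, and RPL3L is the point at -1.199.

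Among the ribosomal protein genes and relatives outside the rule, 0 of 7 passed and the median log2 fold change was 0.04. RPS27L, a relative of RPS27 that p53 induces, was at 80.5 and 68.4 CPM in HJ-23, against 63.1 and 57.8 CPM in DMSO (log2 fold change 0.30, 95% interval -0.08 to 0.68, adjusted p = 0.480 by edgeR). FAU, a fusion of a ubiquitin-like protein with a ribosomal protein, had a log2 fold change of 0.02. RPS27L and FAU were chosen after their values were seen.

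Of 19 other translation genes whose messages have TOP tracts, 0 passed, 4 were lower at an unadjusted p below 0.05 (21.1%, against 5.25% of all genes) and 0 were higher (against 6.77%). Of the 19, 13 were negative and the median was -0.09. EEF1A1 (ENSG00000156508), the elongation factor that carries aminoacyl-tRNA to the ribosome, was at 6684 and 5768 CPM in HJ-23, against 7722 and 11686 CPM in DMSO. Its log2 fold change was -0.64 (SE 0.23, 95% interval -1.20 to -0.08, adjusted p = 0.377 by edgeR). EIF4B, a cofactor of the helicase eIF4A, was at 903 and 796 CPM in HJ-23, against 1058 and 1139 CPM in DMSO (log2 fold change -0.37). The histone chaperone NAP1L1 and the initiation factor subunit EIF3L had log2 fold changes of -0.43 and -0.53. Unlike most members, 12 of these 19 were not higher in HJ-23 replicate 2 than in replicate 1: 7 were, against 64 of 78 members. The TOP genes held 2.73% and 2.61% of counts in HJ-23, against 2.78% and 3.10% in DMSO (exact two-sided permutation p = 0.333, the smallest 2 against 2 libraries can give). EEF1A1 alone gave 237018 and 198536 counts in HJ-23, against 239995 and 341987 in DMSO. The lower pooled share in HJ-23 therefore leans on this gene and does not describe the other TOP genes.

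All 9 chaperones and assembly partners of ribosomal proteins had positive log2 fold changes, against 7178 of the 14062 genes tested. Their median was 0.20, and 0 passed over all genes. With the GC and length correction AAMP was at -0.08 and the others stayed positive. For 6 of them the HJ-23 libraries were both higher than either DMSO library, against 24.8% of all genes. LTV1 (ENSG00000135521), which helps build the head of the small subunit, was at 31.7 and 23.04 CPM in HJ-23, against 13.6 and 20.1 CPM in DMSO (log2 fold change 0.702, 95% interval 0.06 to 1.34, adjusted p = 0.389 by edgeR). It was the 1 of these 9 genes with an unadjusted p below 0.05, in the higher direction, against 6.77% of all genes.

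Of 7 regulators, 0 passed. LARP4, which binds poly(A) and stabilises messages, was at 27.1 and 36.98 CPM in HJ-23, against 42.9 and 53.1 CPM in DMSO (log2 fold change -0.58, adjusted p = 0.389 by edgeR). MYC, which drives transcription of ribosomal protein genes, was at 12.7 and 5.98 CPM in HJ-23, against 17.7 and 13.7 CPM in DMSO (log2 fold change -0.75, 95% interval -1.66 to 0.16), and was named after its values were seen. Both had HJ-23 libraries below DMSO libraries without overlap. LARP1, which binds TOP tracts, was at 175 and 189 CPM in HJ-23, against 158 and 145 CPM in DMSO (log2 fold change 0.27). MDM2 was at 79.7 and 39.2 CPM in HJ-23, against 146 and 55.9 CPM in DMSO, so the groups overlapped and the libraries of each group were far apart (log2 fold change -0.76, 95% interval -2.31 to 0.78). Without DMSO replicate 2 the MDM2 log2 fold change was -1.32, a value that rests on DMSO replicate 1 as the only control library. LARP1 and MDM2 were also named after their values were seen.

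The 78 tested genes of the mitochondrial ribosome, which translates the messages of the mitochondrial genome, had a median log2 fold change of 0.05, with 47 positive and 0 past the threshold. HJ-23 exceeded DMSO without overlap for 20 of them (25.6%, near the 24.8% of all genes) and lay under it for 13 (16.7%, against 21.2% of all genes). They held 0.341% and 0.363% of counts in HJ-23, against 0.335% and 0.331% in DMSO.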

How the data were processed

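The authors deposited 1 table of whole-number gene counts per library, without normalization as the values show; HISAT2, RSEM, bedtools, Trimmomatic and FastQC are listed, per the submitters' processing notes, with no versions or roles. Genome build, annotation and strand setting: not given in the sources used here. Coordinates of start sites are therefore RefSeq's alone. Among values of 1 to 8 counts, 69.6% to 72.3% per library were even, against 49.7% to 50.8% above 50, so both mates of many pairs may have been counted. Reads of ribosomal protein genes can be shared with pseudogenes (1132 are annotated for 76 of the 78 members in GENCODE 29) and with the readthrough genes RPL17-C18orf32, RPL36A-HNRNPH2 and RPS10-NUDT3, so single values are uncertain.

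The test was edgeR's quasi-likelihood test (edgeR 4.0.16, legacy mode, R 4.3.3), with TMM factors from 0.983 to 1.03, filterByExpr and robust dispersions. P-values were adjusted by Benjamini and Hochberg's method across the 14062 genes that passed the filter. A standard error is the size of the log2 fold change over the root of its F value, and 95% intervals use the total degrees of freedom. DESeq2 1.42.0 was an alternative. No 2 libraries were repeats of one another (chi-square over its degrees of freedom 37.9 to 145.2). The fits were tested on simulated data. Values of some genes are not reported here.

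The members and lists were chosen with earlier results of these data known. Genes were named by a rule: members past the threshold; the 6 largest changes each way among members whose groups do not overlap, which gave no higher gene; a fixed set of 15 symbols; the 3 highest and lowest levels per kilobase; and up to 4 genes per other list with an unadjusted p below 0.05.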

Additional observations from a re-analysis of the deposited data

How the results depend on the processing

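No cytosolic ribosomal protein gene passed the threshold under any of the 13 alternatives, in either direction; the smallest adjusted p of a member was 0.0525, under a crossed pairing added after seeing the data. The median over the members ran from -0.24 to 0.018 over fits that left out 1 library (large subunit -0.19 to -0.021, small subunit -0.30 to 0.11). The difference in share ran from -0.87 to 0.22 percentage points and the difference in subunit ratio from -0.077 to 0.0502 in the same way. With other totals the share difference was -0.48 (without mitochondrially encoded genes) and -0.68 (without the 100 other most counted genes), and the ratio difference was 0.0116 without the 3 most counted genes of each subunit. The moves of the share and ratio differences were smaller than the spread between replicates, and the sign of the ratio difference is not settled. The medians moved by more than their spread in some fits. Without HJ-23 replicate 2 this held for all members (-0.24 against -0.09, spread 0.12) and the small subunit (-0.30 against -0.07, spread 0.19). Without HJ-23 replicate 1 it held for the large subunit (-0.021 against -0.12, spread 0.097). Other pathway genes past the threshold numbered 0 in the fit as reported, and 1 higher and 2 lower under the crossed pairing. MDM2 was at -1.32 without DMSO replicate 2, a fit whose DMSO group was replicate 1 alone.

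Of 311 values of the 24 named members under alternatives, 18 changed sign, for 13 members, and 0 passed the threshold; none of 78 values of the 6 other named genes changed sign, and 3 passed, all under the crossed pairing (LTV1, EEF1A1 and EIF3L). With total counts alone RPL13A was at 0.0059. With the GC and length correction RPLP2 was at -0.19, RPS15 at -0.0060 and RPS2 at -0.10. With 1 library left out, the ranges of log2 fold changes that crossed 0 were -0.58 to 0.016 for RPL10, -0.14 to 0.027 for RPL11, -0.15 to 0.060 for RPL13A, -0.51 to 0.016 for RPL39, -0.39 to 0.44 for RPLP1, -0.19 to 0.21 for RPLP2, -0.045 to 0.44 for RPS15, -0.46 to 0.15 for RPS18, -0.071 to 0.38 for RPS19, -0.065 to 0.24 for RPS2, -0.45 to 0.047 for RPS27A, -0.54 to 0.62 for RPS28 and -0.30 to 0.00025 for RPSA. The cause was not tested.

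The replicate numbers are shared between groups but the labels do not say that they mark a batch, and same-numbered libraries deviated in opposite directions (Pearson -0.18 over 14062 genes, -0.51 over the members). With the replicate block 0 members and 294 of all genes were called, and with the crossed pairing 0 members and 966. Against 12 in the fit as reported, all genes called numbered 309 with DESeq2, 35 with the GC and length correction, 31 with no filter, 0 with a mean of at least 10 CPM and 0 to 273 with 1 library left out. Among the members, only RPL3L had under 100 counts in a library.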
